A study of Mus musculus with 8 samples.

Results

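Platr genes (pluripotency-associated transcripts) were named for expression that goes with pluripotency in embryonic stem (ES) cells. Of these genes 9 are described here: Platr3, Platr10, Platr13, Platr14, Platr15, Platr17, Platr22, Platr25 and Platr27. They were matched by mouse symbol to the Ensembl identifiers of the deposited tables, which list 30 Platr genes among 47069 genes. All 9 passed the filter on low counts. Platr13 stood at the centre of the choice because its count was high in the libraries carrying a Pcgf5 edit and low in the others. The question put to the other 8 was which of them do the same. Because those counts chose Platr13, its values are given as a description with no test.

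Poly-A RNA was sequenced from mouse ES cells of strain C57BL/6 in 8 libraries, 2 in each of 4 groups by the genotype label. The groups were wild type cells (WT), Pcgf3 knockout cells (Pcgf3KO), Pcgf5 knockout cells (Pcgf5KO) and Pcgf3 and Pcgf5 double knockout cells (DKO), the knockouts having been made with Cas9. All groups were grown in serum with leukemia inhibitory factor on mouse embryonic fibroblasts stopped with mitomycin-C, so fibroblast RNA can be present in every library. Whether the 2 libraries of a group came from separate clones or cultures is not given in the sources used here, and the p-values measure only the spread between these libraries.

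Long noncoding RNAs such as the Platr transcripts are spliced and polyadenylated like messenger RNAs, and many are restricted to particular cell states. The Platr set was grouped by expression, not by sequence: its members are scattered over the genome, their levels fall when ES cells differentiate, and for most of them no molecular function is established. Pcgf3 and Pcgf5 are RING finger subunits of variant Polycomb complexes, which attach ubiquitin to a core histone and are known mostly for keeping genes silent.

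The 7 complete tables held between 12652616 and 19923964 counts. For WT replicate 1 the table at hand ends early, after 8093 genes, and of the 9 Platr genes it lists Platr13 only, so for the other 8 the WT value is that of WT replicate 2 alone. Levels here are CPM, a gene's count scaled to a common library total. Pcgf3, one of the edited genes, had a CPM of 110 for WT, 66.1 and 60.5 for Pcgf3KO, 92.3 and 94.1 for Pcgf5KO, and 86.6 and 67.2 for DKO. Pcgf5 had a CPM of 20.7 for WT, 17.3 and 17.4 for Pcgf3KO, 12.3 and 9.06 for Pcgf5KO, and 13.5 and 13.9 for DKO. Either transcript was lower with its own edit (Pcgf3 -0.54 ± 0.09, adjusted p = 0.0277, and Pcgf5 -0.64 ± 0.12, adjusted p = 0.0333, on the log2 scale), and neither was near 0. These 2 calls were lost without any 1 of the 4 single-knockout libraries (adjusted p up to 0.177 and 0.187). All 8 ES cell markers were present in each of the 7 libraries, with a summed CPM between 2764 and 3475. The summed CPM of 20 fibroblast markers was 2198 for WT, 1734 and 1784 for Pcgf3KO, 2001 and 2069 for Pcgf5KO, and 2018 and 1947 for DKO, with S100a4 at 0 in all 7. The most abundant of them, Fn1 and Sparc, are not limited to fibroblasts.

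A change is a log2 fold change ± its standard error. The test was the quasi-likelihood test of edgeR, and a call needs a p-value of 0.05 or less after Benjamini-Hochberg adjustment over 15669 genes. The main contrast set the 4 libraries with a Pcgf5 edit (Pcgf5KO and DKO) against the 3 without (WT and Pcgf3KO), with each genotype weighted equally. In bulk RNA, fewer expressing cells and less RNA per cell cannot be told apart.

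In the libraries with a Pcgf5 edit, 4 of the 9 Platr RNAs lay above every library without it. They were Platr13, which was chosen for this order, and Platr3, Platr10 and Platr15. Over all genes tested, 3.65% showed this order. Platr13 and Platr15 were set apart most widely, and Platr15 was the single one of the other 8 that passed the test in the main contrast (log2 fold change 1.67 ± 0.17, adjusted p = 0.00294). Of all genes tested, 0.606% were called higher and 1.62% in either direction. Since the members were chosen with earlier results known, nothing is read from these shares. A fit that leaves out 1 library of a group holds no spread within that group. Without DKO replicate 1 or DKO replicate 2, 6 of the 8 passed (Platr3, Platr10, Platr14, Platr15, Platr17 and Platr27), in fits that called 17.5% and 22.7% of all genes, and without any 1 of the other libraries left out it was Platr15 alone.

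Platr13 (ENSMUSG00000086475, chr11:41218837-41221096, plus strand, mm10) is annotated as a long intergenic noncoding RNA with 3 exons. Its CPM was 1.25 for WT, 0.504 and 0.671 for Pcgf3KO, 6.98 and 8.98 for Pcgf5KO, and 8.85 and 8.75 for DKO. The 4 libraries with a Pcgf5 edit were all high and near each other, and the 3 others all low. The underlying counts were 22 for WT, 10 and 12 for Pcgf3KO, 118 and 111 for Pcgf5KO, and 168 and 177 for DKO.

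The mean CPM of Platr13 with the Pcgf5 edit was 10.4 times the mean without it, and the lowest library with the edit was 5.58 times the highest without. The fitted log2 difference was 3.28 ± 0.20 in the main contrast, 2.66 ± 0.31 for Pcgf5KO against WT and 2.81 ± 0.30 for DKO against WT. Pcgf3KO stood lower than WT by these counts, at -1.09 ± 0.41, and DKO stood near Pcgf5KO, at 0.15 ± 0.19. Platr13 was thus not high where Pcgf3 alone was edited.

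Platr13 is also the one of these RNAs that can be read in both WT libraries. It had 23 counts in WT replicate 1 and 22 in WT replicate 2. Scaled to the genes listed in all 8 tables, its CPM was 6.57 and 7.07 for WT, 2.84 and 3.79 for Pcgf3KO, 39.2 and 50.2 for Pcgf5KO, and 50.1 and 49.5 for DKO. These values are larger only because they are relative to fewer genes, and the order of the groups was the same with the added WT library.

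**Figure D1:**
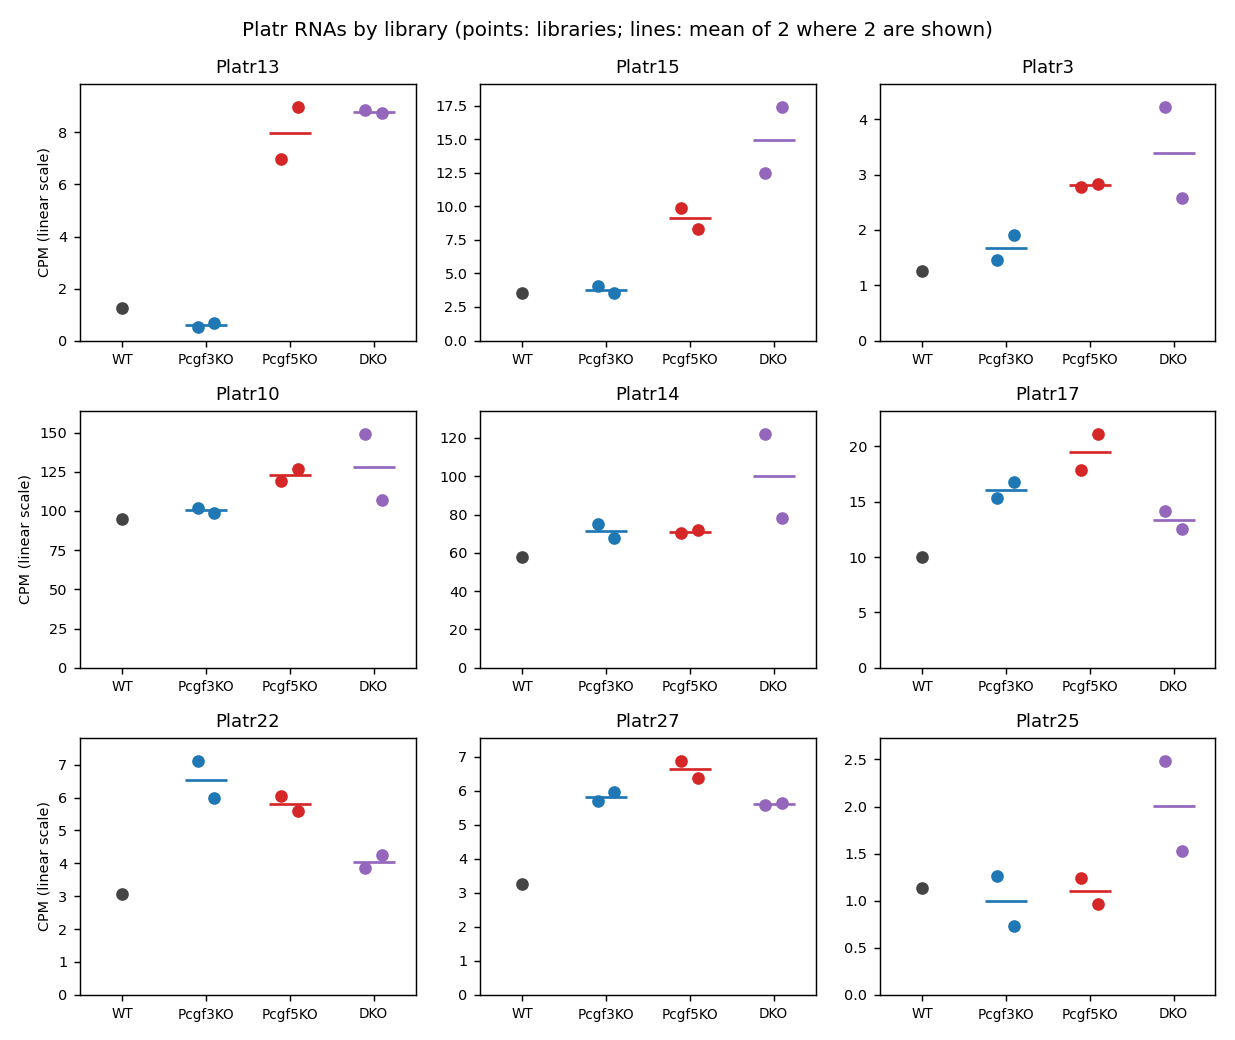
CPM (linear scale from 0) of each of the 9 Platr RNAs in the 7 libraries with complete tables, with a panel for each RNA; points are libraries, and lines are the mean where a group has 2. Platr13 runs from 0.504 to 1.25 without the Pcgf5 edit and from 6.98 to 8.98 with it. Platr17, Platr22 and Platr27 are highest in the single knockouts, Platr27 by a small margin over DKO.

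Platr15 (ENSMUSG00000086563, chr2:150704536-150706876, minus strand, mm10) is a long intergenic noncoding RNA on another chromosome, also with 3 exons. Its CPM was 3.53 for WT, 4.08 and 3.52 for Pcgf3KO, 9.88 and 8.33 for Pcgf5KO, and 12.5 and 17.4 for DKO. WT and Pcgf3KO could not be separated, Pcgf5KO lay above both, and both DKO libraries lay above Pcgf5KO. The mean with the Pcgf5 edit was 3.25 times the mean without it, and the lowest edited library was 2.04 times the highest unedited one.

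Platr15 rose in Pcgf5KO against WT (1.37 ± 0.28, adjusted p = 0.0339), in DKO against WT (2.09 ± 0.27, adjusted p = 0.00453) and in DKO against Pcgf3KO (1.98 ± 0.21, adjusted p = 0.00328). The comparisons with WT share that library, and those with DKO share the DKO libraries. The step from Pcgf5KO to DKO did not pass (0.71 ± 0.19, adjusted p = 0.0759), nor did Pcgf5KO against Pcgf3KO (1.26 ± 0.22, adjusted p = 0.0863) or Pcgf3KO against WT (0.11 ± 0.29, adjusted p = 0.903). Without any 1 of the 4 libraries of the single knockouts the call in Pcgf5KO against WT was lost, with adjusted p from 0.09 to 0.257. Without either Pcgf3KO library the call in DKO against Pcgf3KO was lost (adjusted p = 0.0596 and 0.0849). The calls of Platr15 in the main contrast and in DKO against WT held in all 10 alternatives, with adjusted p of at most 0.0333 and 0.0182.

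Platr13 and Platr15, the RNAs set apart most widely by the Pcgf5 edit, turned out to share most of a transcript, and the shared stretch is printed for that reason. Bases 99 to 375 of the annotated Platr13 transcript, 73.9% of its 375 bases, aligned to bases 192 to 466 of the 768-base Platr15 transcript, 35.8% of it, in the same orientation. Over 277 aligned columns the identity was 94.9%, with 12 mismatches and 2 gap columns. The sequences are from GENCODE M21 transcripts and are written 5′ to 3′ in lower case. Capitals mark the bases that differ between them or face a gap.
Platr13: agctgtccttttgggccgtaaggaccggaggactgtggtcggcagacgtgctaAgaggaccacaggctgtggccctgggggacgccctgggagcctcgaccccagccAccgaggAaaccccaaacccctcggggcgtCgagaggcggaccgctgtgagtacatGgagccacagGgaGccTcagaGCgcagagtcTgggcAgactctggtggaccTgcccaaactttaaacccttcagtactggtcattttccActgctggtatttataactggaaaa
Platr15: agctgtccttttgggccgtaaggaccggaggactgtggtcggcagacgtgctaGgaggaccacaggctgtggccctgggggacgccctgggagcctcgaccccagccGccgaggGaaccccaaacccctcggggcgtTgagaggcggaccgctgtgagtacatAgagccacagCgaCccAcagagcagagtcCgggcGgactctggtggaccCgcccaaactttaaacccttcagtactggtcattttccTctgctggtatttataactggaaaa

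The shared stretch follows the exon structure. It holds the whole second exon of either gene, 91 bases in both, at chr11:41219661-41219751 in Platr13 and chr2:150706190-150706280 in Platr15. It then covers the 184-base last exon of Platr13 (chr11:41220913-41221096) and 182 bases of the 484-base last exon of Platr15 (chr2:150704536-150705019). The first exons, of 100 and 193 bases, take part with 2 bases each. The longest run identical in both RNAs was 53 bases, and in the other 35 of the 36 pairs of these 9 RNAs no shared run was longer than 12 bases.

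Reads from the identical runs fit both genes, and how such reads were counted is not given in the sources used here. The counts of Platr13 and Platr15 are therefore uncertain as separate values, and how far their like pattern comes from shared reads was not tested. The mean with the Pcgf5 edit over the mean without it was 10.4 for Platr13 and 3.25 for Platr15. DKO over Pcgf5KO was 1.1 for Platr13 and 1.65 for Platr15. The stretch is 73.9% of Platr13 and 35.8% of Platr15, so these ratios cannot tell how many reads were shared.

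Other annotated transcripts also matched these RNAs, mostly outside the stretch that the pair shares. In GENCODE M21, 32 other genes aligned to Platr13 or Platr15 over at least 60 columns at 80% identity or more (E-value at most 1e-05), 18 in the same and 14 in the opposite orientation. These limits were set after the alignments were seen. The best match lay wholly outside the shared stretch for 23 of the 32 genes, held under 60 of its bases for 8 and more for 1. Of the 32 genes 25 are in the deposited tables and 12 passed the filter on low counts. In the main contrast 2 of the 12 were called higher and 0 lower in edgeR, where 0.606% of all genes were called higher. Their median log2 fold change was 0.10 beside 0.011 over all genes tested.

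One of the 2 was Ube2l6, which encodes an enzyme that conjugates a ubiquitin-like protein, with 96.3% identity over 136 columns to bases 1 to 136 of Platr15, in its first exon and outside the stretch shared with Platr13. Its CPM was 7.29 for WT, 5.89 and 6.54 for Pcgf3KO, 21.2 and 21.4 for Pcgf5KO, and 15 and 17.4 for DKO. Like Platr13 it was high in each library with a Pcgf5 edit, and it rose by 1.46 ± 0.12 (adjusted p = 0.000602), a call that held in all 10 alternatives. The other was the predicted gene Gm17167, with 95.9% identity in the opposite orientation over bases 1 to 193, the first exon of Platr15, of which 2 lie in the shared stretch (0.74 ± 0.15, adjusted p = 0.0434). The call of Gm17167 was lost with DESeq2 (adjusted p = 0.0596) and without any 1 of the 4 single-knockout libraries. Bases 1 to 136 of Platr15 also matched genes that were not called. Among these were Ift46 (97.8% identity, opposite orientation, -0.18 ± 0.08) and Prss35 (90.7%, same orientation, -0.31 ± 0.13). The 5 tested matches in the same orientation had a median of -0.08, with 2 above 0. The 7 in the opposite orientation had a median of 0.16, with 5 above 0.

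Platr3 (ENSMUSG00000084762, chr2:135648907-135652063, plus strand) is a low-abundance long intergenic noncoding RNA. Its CPM was 1.25 for WT, 1.46 and 1.90 for Pcgf3KO, 2.78 and 2.83 for Pcgf5KO, and 4.22 and 2.57 for DKO. The groups with and without the Pcgf5 edit did not overlap, but the DKO libraries were 1.64 times apart. The difference did not pass the test (1.08 ± 0.26, adjusted p = 0.093). It was 0.89 without DKO replicate 1 and 1.24 without DKO replicate 2, in fits that hold no spread within DKO.

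Platr10 (ENSMUSG00000099370, chr3:75647446-75655731, minus strand) was the most abundant of the 9. Its CPM was 95.0 for WT, 102 and 98.9 for Pcgf3KO, 119 and 127 for Pcgf5KO, and 149 and 107 for DKO. The groups with and without the edit did not overlap, by a margin of 1.04 times between the nearest libraries. The log2 fold change of Platr10 was 0.36 ± 0.11 (adjusted p = 0.17). It was 0.22 and 0.46 without DKO replicate 1 or 2, again in fits with no spread within DKO. Without the filter on low counts both RNAs passed, Platr3 at an adjusted p of 0.00097 and Platr10 at 0.000743. That fit called 3.29% of all genes. In both RNAs the libraries separated completely.

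RefSeq promoter windows (GRCm38.p6, from 250 bases before the annotated start to 50 after it) were matched for 4 of the 9 RNAs: Platr3, Platr10, Platr14 and Platr22. The windows of Platr3 and Platr10 are printed because these RNAs did not overlap between libraries with and without the Pcgf5 edit. They lie at chr2:135646273-135646572 on the plus strand and chr3:75655682-75655981 on the minus strand. The RefSeq start of Platr3 lies 2384 bases before the start in the deposited table, while the 2 starts of Platr10 are the same.
Platr3: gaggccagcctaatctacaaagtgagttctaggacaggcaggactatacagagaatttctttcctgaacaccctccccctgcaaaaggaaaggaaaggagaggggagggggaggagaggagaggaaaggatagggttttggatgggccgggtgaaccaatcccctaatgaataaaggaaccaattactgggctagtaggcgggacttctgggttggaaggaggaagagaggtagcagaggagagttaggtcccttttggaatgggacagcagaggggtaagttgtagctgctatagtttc
Platr10: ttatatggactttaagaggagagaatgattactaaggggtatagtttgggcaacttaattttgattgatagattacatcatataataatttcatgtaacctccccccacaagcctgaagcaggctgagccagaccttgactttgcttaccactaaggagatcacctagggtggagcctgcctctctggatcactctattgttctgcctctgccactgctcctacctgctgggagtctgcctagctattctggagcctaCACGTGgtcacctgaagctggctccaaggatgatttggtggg

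Capitals in the Platr10 window mark an E-box, CACGTG, which is a match to the letters bound by basic helix-loop-helix factors and its own reverse complement. It was the one match among 3 motifs searched on both strands of the 4 windows. The octamer of Oct4 and its relatives, ATGCAAAT, and the Esrrb motif, TCAAGGTCA, were found in none of the 4. Over 32851 RefSeq windows of this length, 7.15% held the E-box, 1.74% the octamer and 0.423% the Esrrb motif. A match or its absence is a description of these letters only.

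Platr17, Platr22 and Platr27 followed another order: every library of the single knockouts lay above both WT and DKO. Over all genes tested, 8.48% had this order. Platr17 (ENSMUSG00000092349, chr17:33905135-33906675, plus strand), annotated as protein coding in GENCODE M21 despite its name, had a CPM of 10 for WT, 15.3 and 16.8 for Pcgf3KO, 17.9 and 21.1 for Pcgf5KO, and 14.2 and 12.5 for DKO. It rose in Pcgf5KO against WT (0.95 ± 0.18, adjusted p = 0.0282), and the values against the same WT library were 0.68 ± 0.18 in Pcgf3KO (adjusted p = 0.0867) and 0.41 ± 0.18 in DKO (adjusted p = 0.249).

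Platr22 (ENSMUSG00000097448, chr1:136696211-136726142, plus strand) is a long intergenic noncoding RNA between Zfp281 and Nr5a2. Its CPM was 3.07 for WT, 7.10 and 5.98 for Pcgf3KO, 6.04 and 5.58 for Pcgf5KO, and 3.85 and 4.25 for DKO. The single knockouts were level with each other, and DKO lay between them and WT. No change against WT passed: 1.09 ± 0.25 in Pcgf3KO (adjusted p = 0.0558), 0.92 ± 0.25 in Pcgf5KO (adjusted p = 0.094) and 0.40 ± 0.25 in DKO (adjusted p = 0.423).

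Platr27 (ENSMUSG00000087547, chr2:157595583-157597320, minus strand), also a long intergenic noncoding RNA, had a CPM of 3.25 for WT, 5.69 and 5.98 for Pcgf3KO, 6.87 and 6.39 for Pcgf5KO, and 5.59 and 5.63 for DKO. All 6 edited libraries were above WT and close to each other. DKO lay below the single knockouts by a small margin only (5.63 against 5.69 in Pcgf3KO). DKO against Pcgf3KO stood at -0.06 ± 0.17 (adjusted p = 0.883). Platr27 rose in Pcgf5KO against WT (1.03 ± 0.23, adjusted p = 0.0448), and the values were 0.85 ± 0.23 in Pcgf3KO (adjusted p = 0.0905) and 0.79 ± 0.23 in DKO (adjusted p = 0.104). The call was lost with DESeq2 (adjusted p = 0.128).

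The fit allowed a direct test of whether the DKO change equals the sum of the single changes, added after the data were seen. The DKO change of Platr22 was smaller than the sum by 1.61 on the log2 scale (-1.61 ± 0.31, adjusted p = 0.0262), and that of Platr17 by 1.22 (-1.22 ± 0.23, adjusted p = 0.0218). For Platr27 the value was -1.09 ± 0.28 and did not pass (adjusted p = 0.0689). These 2 were the calls among the 8 RNAs other than Platr13. Over all genes 2.02% were called in this direction and 3.79% in either. Both calls were lost without any 1 of the 4 single-knockout libraries, with adjusted p from 0.098 to 0.157 for Platr22 and from 0.0861 to 0.139 for Platr17. All of these values rest on the same WT library.

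Markers of ES cells, when summed, were also highest in the single knockouts: their summed CPM was 2764 for WT, 3178 and 3292 for Pcgf3KO, 3450 and 3475 for Pcgf5KO, and 2869 and 3067 for DKO. The order was not general to them: of the 8, Pou5f1 and Dppa5a had every single-knockout library above WT and DKO, and Dppa5a alone ran from 402 to 727. These 2 fell short of the sum of the single changes by the test, where 2.02% of all genes did, and the other 6 did not pass. The part of this in the values of Platr17, Platr22 and Platr27 was not tested.

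Platr14 (ENSMUSG00000086454, chr2:104559163-104571429, plus strand), an abundant processed transcript, had a CPM of 57.8 for WT, 75.1 and 67.8 for Pcgf3KO, 70.5 and 71.7 for Pcgf5KO, and 122 and 78.0 for DKO. All edited libraries lay above WT, and DKO replicate 1 stood 1.57 times above DKO replicate 2. The DKO change against WT was 0.79 ± 0.22 (adjusted p = 0.0927). It passed with DESeq2 (adjusted p = 0.0085). The change was 0.43 without DKO replicate 1 and 1.09 without DKO replicate 2, in fits that hold no spread within DKO.

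Platr25 (ENSMUSG00000074863, chr13:62699406-62726689, minus strand) is annotated as protein coding in GENCODE M21, over a longer interval than in the deposited table. It had a CPM of 1.14 for WT, 1.26 and 0.727 for Pcgf3KO, 1.24 and 0.97 for Pcgf5KO, and 2.48 and 1.53 for DKO. Both DKO libraries were above all others, as for Platr14 and Platr15 and for 9.85% of all genes, and the other groups overlapped. Its change in DKO against WT was 0.81 ± 0.49 (adjusted p = 0.402), a value with a wide error at this depth.

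Side by side against the shared WT library, few changes of the 8 RNAs other than Platr13 passed. In Pcgf5KO 3 of 8 were called higher (Platr15, Platr17 and Platr27) and 0 lower, with a median of 0.94 over the 8. Over all genes 1.31% were called higher and 2.99% in either direction, and the median was 0.005. In DKO 1 of 8 was called, Platr15, with a median of 0.79, where 1.33% of all genes were called higher and 3.22% in either direction. In Pcgf3KO 0 of 8 were called in edgeR and 0 in DESeq2, 3 had an unadjusted p under 0.05 (Platr17, Platr22 and Platr27), and the median was 0.36, where 2.36% of all genes were called.

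The count in Pcgf5KO was 0 without any 1 of the 4 single-knockout libraries, where 0.235% to 0.839% of all genes were called, and 7 without DKO replicate 1 or 2, where 26.8% and 26.4% were. Platr17, like Platr15, lost its call without any 1 of the 4 single-knockout libraries (adjusted p from 0.0851 to 0.23), and so did Platr27 (adjusted p up to 0.294). The count in DKO was 3 without DKO replicate 1 (16.2% of all genes called) and 7 without DKO replicate 2 (34.5%). DKO replicate 1 was the higher library by 1.64 times for Platr3, 1.4 for Platr10, 1.57 for Platr14 and 1.62 for Platr25, and DKO replicate 2 by 1.39 times for Platr15. In 6 of the 9 RNAs (Platr3, Platr10, Platr14, Platr17, Platr22 and Platr27) all 6 edited libraries lay above the single WT library, an order that 18.8% of all genes had.

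**Figure D2:**
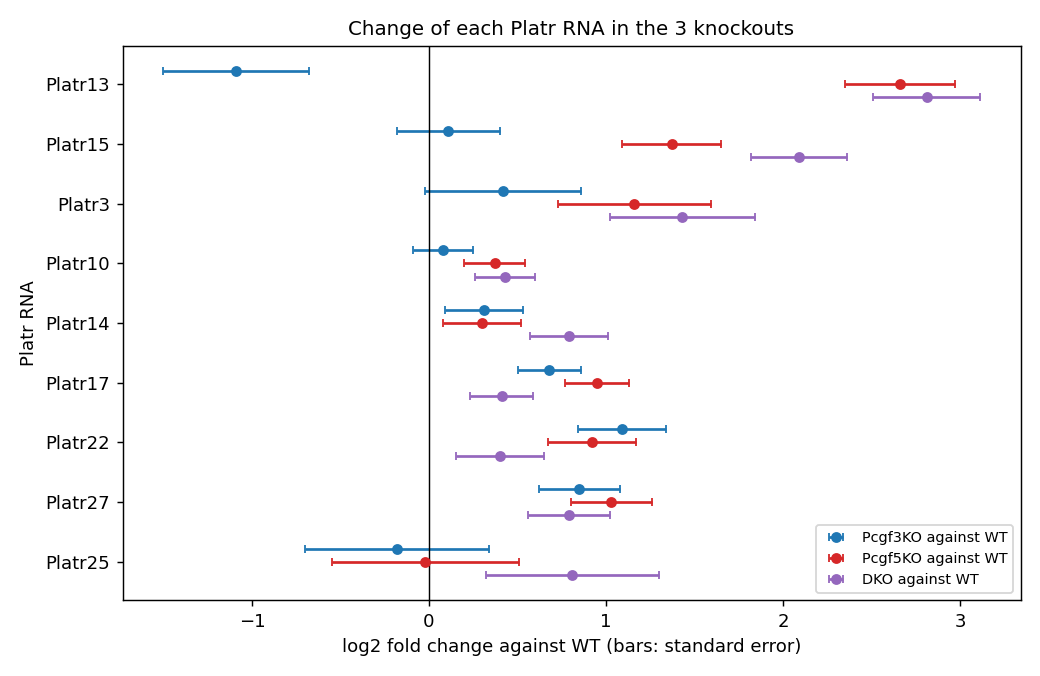
Log2 fold change against WT of each Platr RNA in Pcgf3KO, Pcgf5KO and DKO (points), with bars of 1 standard error; the 3 comparisons share the WT library. Platr13 is at -1.09, 2.66 and 2.81, Platr15 at 0.11, 1.37 and 2.09, and Platr22 at 1.09, 0.92 and 0.40.

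No Platr RNA of the 9 had all its libraries with the Pcgf3 edit (Pcgf3KO and DKO) above the rest, where 5.19% of all genes did. In the contrast of libraries with and without the Pcgf3 edit, 0 of the 8 RNAs other than Platr13 were called in edgeR and 0 in DESeq2, 2 had an unadjusted p under 0.05 (Platr14 and Platr15), and 1.35% of all genes were called. Their median was 0.31, with the highest values 0.41 ± 0.17 for Platr15 (adjusted p = 0.286) and 0.40 ± 0.14 for Platr14 (adjusted p = 0.212). Platr13 stood at -0.47 ± 0.22.

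Between knockouts, Platr15 was the single call of the 8 in DKO against Pcgf3KO, where 0.734% of all genes were called higher and 1.74% in either direction. The DKO value of Platr22 against Pcgf3KO was -0.69 ± 0.19 (adjusted p = 0.102). DKO against Pcgf5KO gave 0 calls of 8 in edgeR and 1 in DESeq2 (Platr14), with 4 at an unadjusted p under 0.05 in edgeR and 2.28% of all genes called. DESeq2 gave no adjusted p there for 4 of the 8 (Platr3, Platr22, Platr25 and Platr27). Platr17 stood at -0.54 ± 0.14 there (adjusted p = 0.0709). Pcgf5KO against Pcgf3KO also gave 0 calls in edgeR and 1 in DESeq2, with 2 at an unadjusted p under 0.05 and 0.14% of all genes called. In that comparison the DESeq2 call was Platr15 (1.26, adjusted p = 0.00418).

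**Figure D3:**
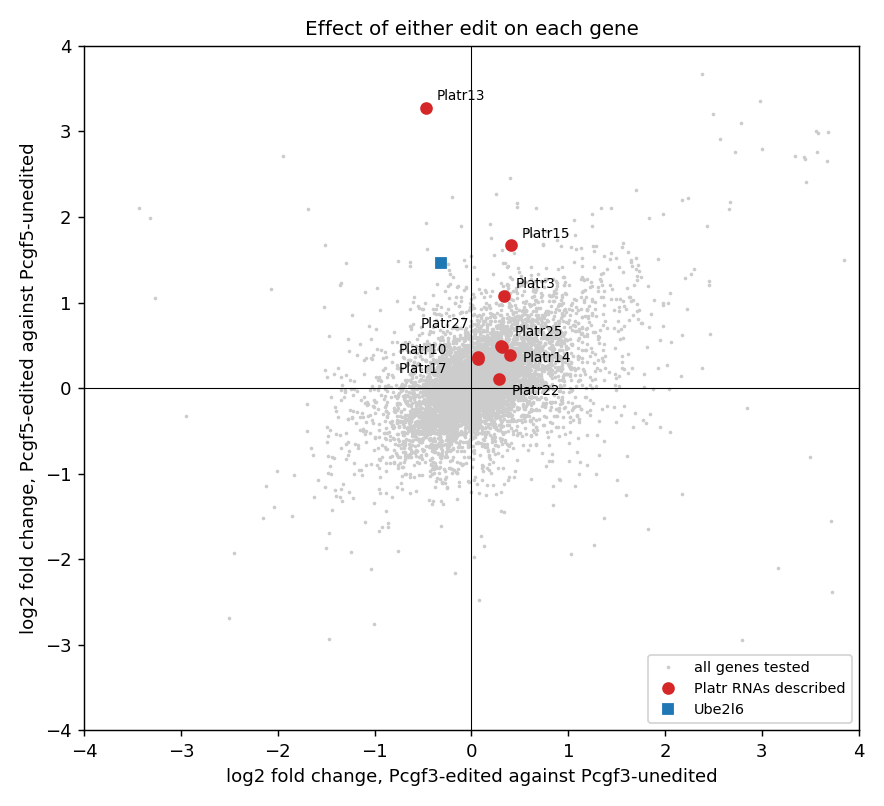
Log2 fold change of each gene tested with against without the Pcgf3 edit (horizontal) and with against without the Pcgf5 edit (vertical); grey points are all 15669 genes tested, of which 7 lie outside the axes, red points the Platr RNAs and the blue square Ube2l6. Platr13 (-0.47, 3.28), Platr15 (0.41, 1.67) and Platr3 (0.34, 1.08) lie highest of the 9.

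Divided by the annotated exon length, which allows genes to be set against each other, the 8 Platr RNAs other than Platr25 spanned more than an order of magnitude. Platr25 was left out because its annotated interval differs from the deposited one. In WT the order was Platr10 (54.5 CPM per kilobase), Platr14 (36.6), Platr17 (12.4), Platr27 (5.16), Platr15 (4.6), Platr13 (3.34), Platr3 (3.04) and Platr22 (1.9), from 1 library with no spread to compare neighbours by. Platr10 and Platr14 led in every group. In DKO these 2 overlapped (61.1 to 85.3 and 49.4 to 77.5), and in the single knockouts they did not.

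Platr13 moved through this order more than any other of the 8. It was the sixth in WT and the last in Pcgf3KO, at a mean of 1.57 CPM per kilobase. In Pcgf5KO it was the fourth at 21.3, with a range of 18.6 to 23.9 that overlapped Platr17 above it (22.1 to 26.2). In DKO it was the third at 23.5, above Platr15 at 19.5, whose range of 16.3 to 22.7 it did not overlap. The counts of Platr13 and Platr15 are uncertain as separate values because of the stretch they share, and so is their order. In Pcgf3KO the range of Platr3 (3.55 to 4.62) overlapped those of Platr15 (4.59 to 5.31) and Platr22 (3.7 to 4.39), while Platr15 lay above Platr22.

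The tables hold 21 other Platr genes, of which 12 passed the filter, and the 9 that did not had at most 10 counts in any library. In these 12, 1 gene, Platr26, had all libraries with the Pcgf5 edit above the rest, as had 3.65% of all genes tested. Platr26 (chr2:71719417-71730966, plus strand) had a CPM of 0.342 for WT, 1.06 for either Pcgf3KO library, 1.12 and 1.29 for Pcgf5KO, and 3.37 and 1.88 for DKO. The step between Pcgf3KO and Pcgf5KO was small, so its pattern differed from that of Platr13, and the value in the main contrast did not pass (1.55 ± 0.37, adjusted p = 0.0852).

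Platr26 was called in DKO against WT (2.91 ± 0.58, adjusted p = 0.0305), where 1.33% of all genes were called higher. It was the one call among the 12 in all these comparisons. That call was lost without any 1 of the 4 single-knockout libraries (adjusted p from 0.079 to 0.0812). In the main contrast the median of the 12 was 0.48, and that of the 8 described above other than Platr13 was 0.44. Platr4 and Platr6 had their libraries with the Pcgf3 edit above the rest, as had 5.19% of all genes and none of the 9. None of the 12 had the order of Platr17, Platr22 and Platr27, which 8.48% of all genes had.

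The nearest protein-coding genes on either side of the 9 RNAs, 18 in all, were set beside them. In the main contrast 1 was called higher (Nr5a2), 1 lower (Serpini1), and their median was -0.02. The share of all genes called there was 0.606% higher and 1.62% in either direction. The neighbours of Platr13, Ccng1 at 464 kb and Pttg1 at 2199 kb, were not called there. Ccng1, which encodes a cyclin, fell by 0.62 in Pcgf3KO (adjusted p = 0.0145) and by 0.60 in Pcgf5KO (adjusted p = 0.0166) against WT. In DKO, where Platr13 was also high, Ccng1 was not called (-0.24 ± 0.10, adjusted p = 0.232), and its DKO change was above the sum of the single changes (0.98 ± 0.13, adjusted p = 0.00734). Either fall was no longer called without any 1 of the 4 single-knockout libraries (adjusted p up to 0.205).

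The neighbours of Platr15, Vsx1 at 15.2 kb and Entpd6 at 42.2 kb, were not called in the main contrast, nor were those of Platr3, Platr14, Platr17, Platr25 and Platr27. Serpini1, which encodes a neuronal serine protease inhibitor, lies 3.95 kb from Platr10 and fell with the Pcgf5 edit by 0.49 ± 0.09 (adjusted p = 0.0338), opposite in sign to the value of Platr10. It fell as well with the Pcgf3 edit (-0.45 ± 0.09, adjusted p = 0.049). Nr5a2, which encodes a nuclear receptor that can drive Oct4 expression, lies 116 kb from Platr22 and rose in Pcgf5KO against WT (0.68 ± 0.11, adjusted p = 0.0141). Its DKO change was below the sum of the single changes (-0.68 ± 0.14, adjusted p = 0.0287), as was that of Platr22. In Pcgf3KO against WT the 2 differed, with Nr5a2 at 0.15 ± 0.11 (adjusted p = 0.542) and Platr22 at 1.09 ± 0.25 (adjusted p = 0.0558). The calls of Serpini1 in the main contrast and of Nr5a2 in Pcgf5KO against WT were lost without any 1 of the 4 single-knockout libraries (adjusted p up to 0.226 and 0.191).

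**Figure D4:**
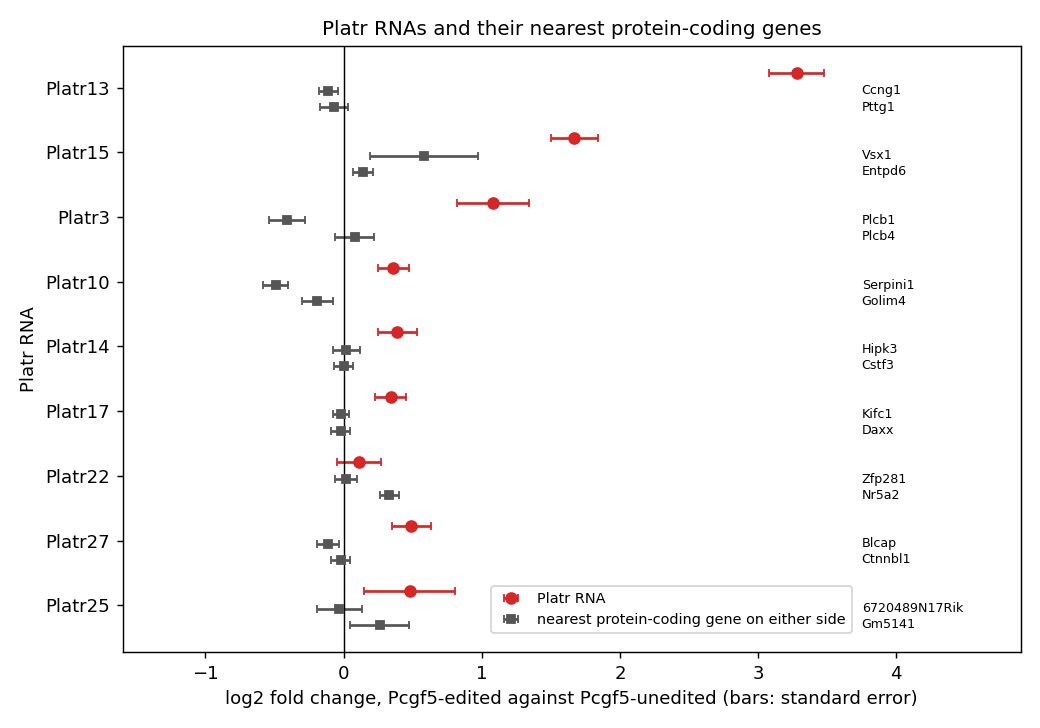
Log2 fold change with against without the Pcgf5 edit of each Platr RNA (red points) and of the nearest protein-coding gene on either side (grey squares, named at the right), with bars of 1 standard error. Platr13 stands at 3.28 and Platr15 at 1.67, while the median of the 18 neighbours is -0.02.

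The transcripts nearest to Platr13 in pattern were sought over the 7 libraries among genes whose mean log2 CPM reached 2, leaving out predicted genes by name. The highest Pearson correlations of log2 CPM were those of Alpl (0.980), Galnt6 (0.977), Fam53b (0.970), Zfp990 (0.969), Mcm4 (0.968) and Ube2l6 (0.964). The 7 points share 4 genotypes and their libraries, so these values are a description with no test. Alpl, which encodes the alkaline phosphatase used to stain ES cell colonies, had a CPM of 76.1 for WT, 73.2 and 75.3 for Pcgf3KO, 108 and 114 for Pcgf5KO, and 109 and 121 for DKO.

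Alpl had the order of Platr13 at a far smaller fold. Among the other Platr RNAs the correlation with Platr13 was 0.910 for Platr15, 0.840 for Platr3 and 0.742 for Platr10. It was 0.516 for Platr25, 0.468 for Platr14, 0.356 for Platr27, 0.219 for Platr17 and -0.267 for Platr22. Platr15 ranked 31 among 10642 candidates.

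The pluripotency regulators, with which Platr RNAs are grouped by definition, mostly did not pass the test with the Pcgf5 edit. Of 24 tested, 2 rose with the Pcgf5 edit and 0 fell, with a median of 0.04, where 0.606% of all genes were called higher. The 2 were Nr5a2 (0.33 ± 0.07, adjusted p = 0.0462) and Tdgf1, a Nodal co-receptor (0.36 ± 0.06, adjusted p = 0.0305). The call of Nr5a2 was lost without any 1 of the 4 single-knockout libraries (adjusted p up to 0.325). In Pcgf5KO against WT 6 of 24 rose, where 1.31% of all genes were called higher. Among them were Dppa5a (0.82 ± 0.11), Nr0b1 (0.58 ± 0.12) and Pou5f1, which encodes Oct4 (0.41 ± 0.09). Against the same WT library 5 of 24 rose in Pcgf3KO and 5 in DKO. In either direction 2.36% and 3.22% of all genes were called there. Dppa5a (0.74 ± 0.11, adjusted p = 0.0106) and Nr0b1 (0.68 ± 0.12, adjusted p = 0.0189) were called in Pcgf3KO too, and Pou5f1 was not. In DKO Dppa5a, Nr0b1 and Pou5f1 were not called. For 6 regulators the DKO change was below the sum of the single changes, as for Platr17 and Platr22, and for 2, Tbx3 and Tfcp2l1, above it, where 3.79% of all genes were called in either direction.

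Other noncoding RNAs known from ES cells were listed too: 19 of 30 could be tested, and in the main contrast 0 were called in edgeR, with a median of 0.31. Ptprtos was called higher in each knockout against WT, at 2.32 ± 0.21 in Pcgf3KO, 1.94 ± 0.22 in Pcgf5KO and 1.47 ± 0.22 in DKO. Its CPM was 3.36 for WT, 17.4 and 16.2 for Pcgf3KO, 12.4 and 13.5 for Pcgf5KO, and 8.43 and 10.1 for DKO, the order of Platr22 rather than of Platr13. Fibroblast markers gave 0 higher and 2 lower calls of 18 tested in the main contrast, with a median of -0.10. Of all genes 1.62% were called there in either direction. Against WT, 6 of the 18 were called lower in Pcgf3KO, 1 in Pcgf5KO and 4 in DKO, with 0 higher. The shares of all genes called in either direction were 2.36%, 2.99% and 3.22%. Among the lower markers were Fn1 (-0.57 ± 0.10, adjusted p = 0.0189) and Vim (-0.83 ± 0.09, adjusted p = 0.00284) in Pcgf3KO and Tagln (-1.58 ± 0.13, adjusted p = 0.000578) in DKO. Sparc was called in no knockout against WT (0.07 ± 0.09 in Pcgf3KO). Fn1 (-0.05 ± 0.10) and Vim (-0.16 ± 0.09) were not called in DKO against WT. In DKO against Pcgf3KO 6 of the 18 were called higher, Fn1 and Vim among them, and 2 lower, where 1.74% of all genes were called. The part of fibroblast markers in the values of the Platr RNAs was not tested.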

How the data were processed

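The values that the authors deposited for each library are read counts by Ensembl gene, in whole numbers. The submitters' processing notes name HTSeq 0.6.0, Cufflinks 2.2.1, TopHat2 2.0.12 and mm10, without roles. The kit named in the labels' protocols does not mark strand. Not given in the sources used here are the read length, the annotation release, the strand setting and the counting of reads that match several places.

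Counts were tested with glmQLFit and glmQLFTest of edgeR 4.0.16 (R 4.3.3; TMM, filterByExpr with a minimum count of 10). All 4 groups entered 1 fit over 7 libraries, with 3 residual degrees of freedom and the spread shared between groups, so the lone WT library is assumed to vary like the others. The filter left 15669 genes with 99.93% of the counts. The WT replicate 1 table lists 17.2% of the genes, and genes not listed there were treated as not measured. Symbols, exon lengths and transcripts came from GENCODE M21, which gave a symbol for 46488 of 47069 identifiers. Transcripts were aligned with blastn 2.17.0. Alternatives were RLE factors, DESeq2 1.42.0, no filter, 8 libraries, a replicate block and leaving out each library. The scripts were tested on simulated data.

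The members and lists were chosen with earlier results of these data known. Genes named are the 9 members, other Platr genes that passed the test or did not overlap, the nearest protein-coding neighbours, the 6 genes most correlated with Platr13, list members that passed, and Pcgf3 and Pcgf5. Ube2l6, Gm17167, Ift46 and Prss35 were also singled out after their alignments were seen, as were Platr4 and Platr6 for their order by the Pcgf3 edit. The 4 most abundant fibroblast markers were Fn1, Sparc, Vim and Tagln.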

Additional observations from a re-analysis of the deposited data

Results flagged for a closer look

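For 2 of the Platr RNAs the change with the Pcgf5 edit differed by whether Pcgf3 was also edited, by a direct test of that difference. It was lower in Pcgf3-edited cells by 1.22 on the log2 scale for Platr17 (-1.22, edgeR adjusted p = 0.0218) and by 1.61 for Platr22 (-1.61, adjusted p = 0.0262). Both RNAs were higher in all 4 libraries of the single knockouts than in the WT library and in both DKO libraries. The test was added after the data were seen, and neither call held without any 1 of the 4 single-knockout libraries.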

How the results depend on the processing

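No value changed direction under any alternative. Without the filter on low counts, the calls among the 8 RNAs other than Platr13 were 4 with against without the Pcgf5 edit (1 as reported), 1 with against without the Pcgf3 edit (0), 2 in Pcgf3KO (0) and 4 in DKO (1) against WT, 5 in DKO against Pcgf3KO (1), 3 in DKO against Pcgf5KO (0) and 1 in Pcgf5KO against Pcgf3KO (0). In the same order, the fit without the filter called 3.29%, 4.21%, 4.34%, 5.79%, 5.32%, 9.07% and 0.879% of all genes. As reported, these shares were 1.62%, 1.35%, 2.36%, 3.22%, 1.74%, 2.28% and 0.14%. DESeq2 gave 2, 1 and 1 in DKO against WT, DKO against Pcgf5KO and Pcgf5KO against Pcgf3KO. It called 1.95%, 3.17% and 0.302% of all genes there. The cause was not tested.

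Leaving out each library in turn gave 1 to 6 calls for the Pcgf5 edit, 0 to 2 for the Pcgf3 edit, 0 to 4 in Pcgf3KO, 0 to 7 in Pcgf5KO and 1 to 7 in DKO against WT, 0 to 6 in DKO against either single knockout, 0 to 2 between the single knockouts, and 0 to 5 for the interaction. The number of RNAs above all unedited libraries was 4, or 5 without Pcgf3KO replicate 1, which adds Platr14. Over all genes the calls for the Pcgf5 edit were 254, with 837 without the filter, 2684 and 3530 without DKO replicate 1 or 2, and 38 to 45 without any 1 single-knockout library. DESeq2 called 807 genes in DKO against Pcgf5KO, where edgeR called 357, and 77 against 22 in Pcgf5KO against Pcgf3KO. In the comparisons other than that of the Pcgf5 edit, fits without 1 library called between 3 and 6583 genes. WT replicate 2 could not be left out of comparisons with WT, and the 8-library fit covers Platr13 alone among the 9.

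Whether the replicate numbers pair the samples is not given in the sources used here. The deviations of same-numbered libraries correlated at -0.0139, 0.135 and 0.0101 between the knockout groups over 15669 genes. WT could not be included, so these values do not settle the pairing. With the number as a replicate block, 3 RNAs were called in DKO against Pcgf5KO, where 9.78% of all genes were (2.28% as reported). In Pcgf5KO against Pcgf3KO 1 RNA was called, where 0.396% of all genes were (0.14% as reported). Platr27 missed the threshold in Pcgf5KO against WT with the block (adjusted p = 0.0538). The block gave 305 calls for the Pcgf5 edit over all genes. Of the values of single genes, 361 kept their side of the threshold, 54 newly passed and 66 no longer did. Low counts limit Platr3, Platr13 and Platr25, and with 1 WT library no value against WT has a replicate check for the other 8.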
